A study of Mus musculus with 8 samples.

Results

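The normal course of differentiation was followed in WT mouse embryonic stem cells (mESCs) on day 0 and in the embryoid bodies (EBs) they had formed by day 4. All 18094 genes of the deposited table belong to this comparison, read in the 4 WT libraries among the 8 RNA-seq libraries of the study. The mESCs were of the male mouse line E14Tg2A, kept on feeder cells (mouse embryo fibroblasts inactivated with mitomycin C) in serum with leukemia inhibitory factor (LIF) and the 2i inhibitors CHIR99021 and PD0325901. The EBs grew from hanging drops in serum medium without LIF, so that time, medium and aggregation changed together and cannot be told apart. The other 4 libraries came from CTCF-K20R cells of the same line, in which lysine 20 of CTCF was replaced with arginine by CRISPR/Cas9, at the same days.

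Pluripotent cells of the mouse pass from a naive state, held in culture by LIF and 2i, through a formative and primed state to the germ layers. At the primitive streak, Nodal, BMP, Wnt and FGF signals act together on epiblast cells. Cells that express T and Eomes leave the epithelium there and become mesoderm and definitive endoderm. EBs go through a comparable sequence without the shape of an embryo.

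The values are normalized counts, which are read counts per gene after the authors' scaling over all 8 libraries, and they summed to 19412659 to 20958552 in the WT libraries. For genes at 20 normalized counts or more, the squared difference between the 2 WT libraries of a day was 0.305 (day 0) and 0.276 (day 4) times that of independently drawn reads, against 3.88 and 4.27 for the CTCF-K20R pairs. The difference within WT pairs was below sampling noise, so each pair was averaged and counted as 1 sample. With 1 sample a side no p-value is given for the WT change. Genes whose mean over the 4 WT libraries reached 10 normalized counts were compared, and a gene was called higher or lower when log2(mean + 1) differed by more than 1 between the days, that is, by about 2-fold. "Rose" and "fell" are used for such calls. Intervals on ratios are 95% exact intervals for counting error in 1 library, without any biological spread. A gene at 0 in both libraries of a day was set to 3 reads, or 3.40 normalized counts on day 0 and 2.88 on day 4. Its fold under that setting is given as "at least". This is not the end of the 95% interval, which lay lower, at 4064 against 4587 for Lhx1 and at 128 against 146 for Myo1f.

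Of 15841 genes compared, 3089 (19.5%) were more than 2-fold higher and 2524 (15.9%) more than 2-fold lower on day 4, while 10228 stayed within 2-fold. More than 16-fold differences were found for 568 genes that rose and 308 that fell, and more than 256-fold differences for 43 and 7. The median over all genes was 0.02 on the log2 scale. In 96.1% of the genes the WT libraries of the 2 days did not overlap, so non-overlap marks no gene out here. The genes that rose held 2.21% of the day 0 counts and 10.1% of the day 4 counts, and those that fell held 15.7% and 4.84%. Called genes were mostly of low or middle abundance. Among genes with a mean of 10 to 100 normalized counts 31.8% rose and 24% fell, and from 10000 upward 3.28% rose and 8.2% fell. In bulk RNA a lower count can mean fewer cells of a kind or less RNA per cell, and these cannot be told apart.

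**Figure D1:**
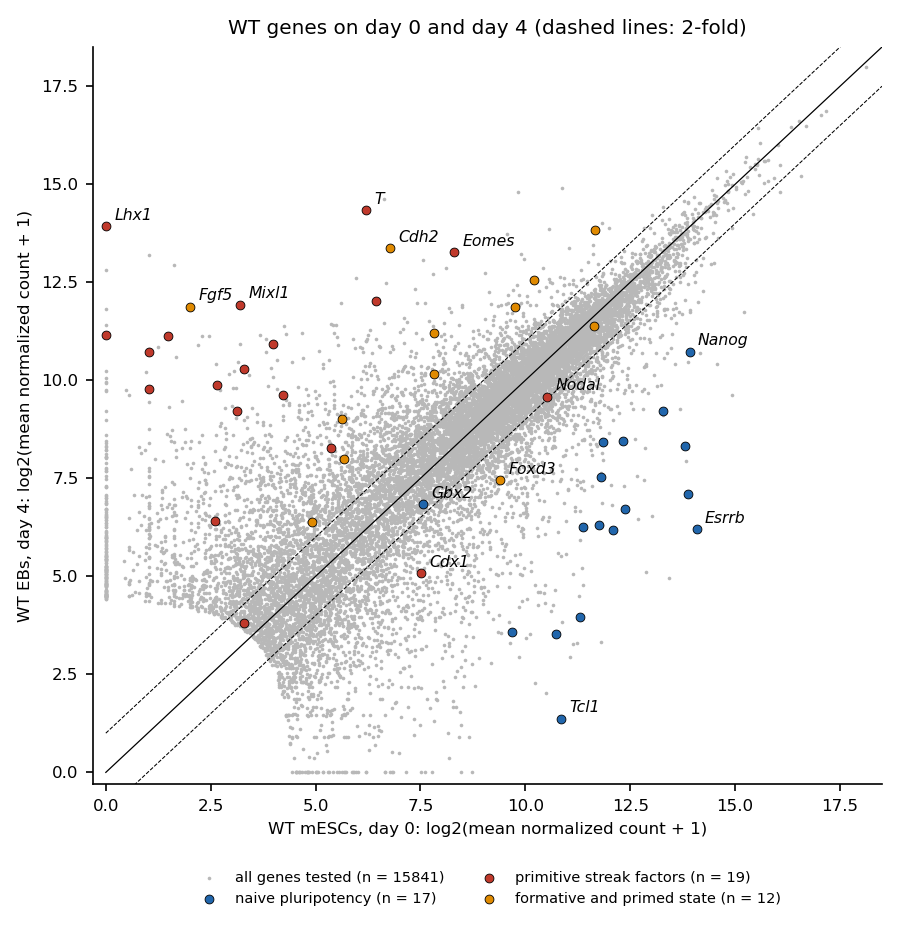
Mean normalized counts of the 15841 genes compared, as log2(mean + 1), in WT mESCs on day 0 (x axis) and WT EBs on day 4 (y axis), with the lists of naive, formative and primitive streak genes in color. The naive genes lie below the diagonal and most primitive streak genes far above it, with Lhx1 at 0 on day 0.

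The 4 genes that mark the nascent mesendoderm were all high on day 4. They were chosen with earlier results of these data known, so their levels are no independent check on the day 4 label. T (also Brachyury, ENSMUSG00000062327, chromosome 17 of GRCm38 from 8434423 to 8442496), the T-box factor of the primitive streak and notochord, had 73.2 and 72.6 normalized counts in the mESC libraries and 20696 and 20904 in the EB libraries. That is 285-fold more (226 to 366). Eomes (ENSMUSG00000032446, chromosome 9 from 118478212 to 118486132), the T-box factor needed for endoderm and early cardiac mesoderm, was already present at 317 and 315 in mESCs and reached 9931 and 9866, 31.3-fold more (27.9 to 35.2). Eomes overlaps Gm33460 on the opposite strand, and the use of strand in the counting is not given in the sources used here. Mixl1 (ENSMUSG00000026497, chromosome 1 from 180693043 to 180697034), a homeobox factor of the streak, went from 7.92 and 8.51 to 3898 and 3889, 474-fold (237 to 1084). Lhx1 (ENSMUSG00000018698, chromosome 11 from 84518284 to 84525535), a LIM-homeobox factor of the organizer, was at 0 in both mESC libraries and at 15499 and 15709.5 in the EB libraries, at least 4587-fold higher and the largest rise of the table among genes whose mean reached 100. For each of the 4 genes both day 4 libraries lay above both day 0 libraries, but the days did not overlap in 96.1% of all genes compared either. Per kilobase of the longest transcript, the day 4 level was highest for T at 10166 normalized counts per kb, followed by Lhx1 at 4057, Eomes at 2780.5 and Mixl1 at 1697. The order differed from that on day 0, when Eomes led with 88.8 and T followed with 35.6.

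The regions just before the transcription starts of 4 genes are shown because genes with large changes differed from the rest in promoter CpG content, which is described further on. They are from the RefSeq promoter table (GRCm38.p6), run 5′ to 3′ along the strand of the gene up to the first annotated base, and have every CpG in capitals. Lhx1 (chr11:84525536-84525784, minus strand) is the gene with the largest rise given above and has 26 CpGs in 249 bases. T (chr17:8434173-8434422, plus strand) has 14 in 250. Tcl1 (chr12:105222794-105222987, minus strand) is the gene with the largest fall on the log2(mean + 1) scale among genes whose mean reached 100 and has 5 in 194, and Esrrb (chr12:86360867-86361116, plus strand), a naive factor, has 6 in 250. The 4 genes are single cases. The median ratio of observed to expected CpGs was lower than over all genes (0.71) for genes more than 16-fold higher (0.561) and more than 16-fold lower (0.389). Lhx1, at 0.991, and T, at 0.594, lay above the median of the former.
Lhx1: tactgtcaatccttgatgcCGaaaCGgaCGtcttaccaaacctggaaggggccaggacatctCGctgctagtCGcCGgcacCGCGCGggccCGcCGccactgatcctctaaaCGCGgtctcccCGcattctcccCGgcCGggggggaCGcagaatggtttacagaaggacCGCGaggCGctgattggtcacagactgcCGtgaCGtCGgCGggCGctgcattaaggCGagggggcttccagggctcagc
T: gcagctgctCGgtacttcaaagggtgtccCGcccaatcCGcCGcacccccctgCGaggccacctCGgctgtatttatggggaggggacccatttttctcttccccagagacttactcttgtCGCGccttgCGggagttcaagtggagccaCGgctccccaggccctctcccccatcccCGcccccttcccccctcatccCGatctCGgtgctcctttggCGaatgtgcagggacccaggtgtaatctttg
Tcl1: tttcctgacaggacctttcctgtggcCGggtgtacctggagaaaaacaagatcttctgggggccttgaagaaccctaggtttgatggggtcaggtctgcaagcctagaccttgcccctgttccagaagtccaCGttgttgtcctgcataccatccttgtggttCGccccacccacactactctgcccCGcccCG
Esrrb: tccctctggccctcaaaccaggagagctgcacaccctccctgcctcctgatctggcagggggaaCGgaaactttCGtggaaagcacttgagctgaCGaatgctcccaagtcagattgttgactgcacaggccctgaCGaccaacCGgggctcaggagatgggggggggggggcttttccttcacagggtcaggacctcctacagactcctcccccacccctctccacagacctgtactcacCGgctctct

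The naive network had the lowest median of all lists. Of 17 naive pluripotency genes compared, 0 rose, 16 fell and the median log2 difference was -5.48, against 0.02 for all genes. Some genes stand in more than 1 of the lists. Counts of calls in each list, here and below, stand against 19.5% higher and 15.9% lower over all genes compared. Esrrb (ENSMUSG00000021255), an orphan nuclear receptor that maintains the naive state, had 17282 and 17343 normalized counts in mESCs and 71.5 and 73.6 in EBs, 239-fold less (192 to 299.9). Tfcp2l1, a grainyhead-related factor that LIF maintains, went from 15045 and 15133 to 134 and 139.8. The Krüppel-like factors fell as well, Klf4 from 5324 and 5262 to 106 and 104 and Klf2 from 4382 and 4398 to 73.4 and 69.7, while Klf5 fell less, by 3.44 on the log2 scale. Prdm14, which keeps mESCs from epiblast fate, had 11.5 and 10.5 normalized counts left on day 4 of 828 and 822 on day 0. Tcl1 (ENSMUSG00000041359), a co-activator of AKT kinase, went from 1842 and 1853 to 0.958 and 2.22, which is about 2 reads, and the ratio of 1163 has a counting interval of 288 to 8619.6. Nanog, the homeobox factor of the naive state, fell least of the 16, from 15423 and 15415 to 1702 and 1698. Gbx2, with 196 and 182 and then 110.4 and 117, was the 1 member within 2-fold. Dppa3 was under the minimum of 10.

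The general pluripotency factors split. Pou5f1 (Oct4), which mouse pluripotent cells of every state need, stayed within 2-fold at 24629 and 24703 in mESCs and 12595 and 12696 in EBs. Sox2, its partner on DNA, went from 13107 and 13162 to 608 and 618, 21.4-fold less (19.9 to 23.2). Lin28a, an RNA-binding protein that blocks let-7 maturation, rose from 4068 and 4108 to 15158 and 15200.2. Over the 12 core pluripotency genes, 1 rose, 6 fell and 5 stayed within 2-fold, with a median of -1.54. The largest loss per kilobase of any gene was that of a member of this list, Dppa5a, an RNA-binding protein of pluripotent cells, from 50251 to 1274 normalized counts per kb.

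Genes of the formative and primed epiblast moved the other way, with 10 of 12 higher, 1 lower and a median of 2.34. Fgf5, the standard marker of this state, had 2.25 and 3.76 normalized counts in mESCs, or about 3 reads, and 3765 and 3753 in EBs. Its ratio was 1249 with a counting interval of 412 to 5839. Dnmt3b, a de novo DNA methyltransferase, rose from 3212 and 3281 to 14624 and 14619.7, and Otx2, a homeobox factor of the epiblast, from 848 and 873 to 3709 and 3709. Cdh2 (N-cadherin) went from 107 and 111 to 10643 and 10661. Foxd3 was the member that fell, from 681 and 663 to 173 and 176. Pou3f1 and Sox3, epiblast factors that also serve neural fate, rose to only 256 and 82.8 normalized counts.

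**Figure D2:**
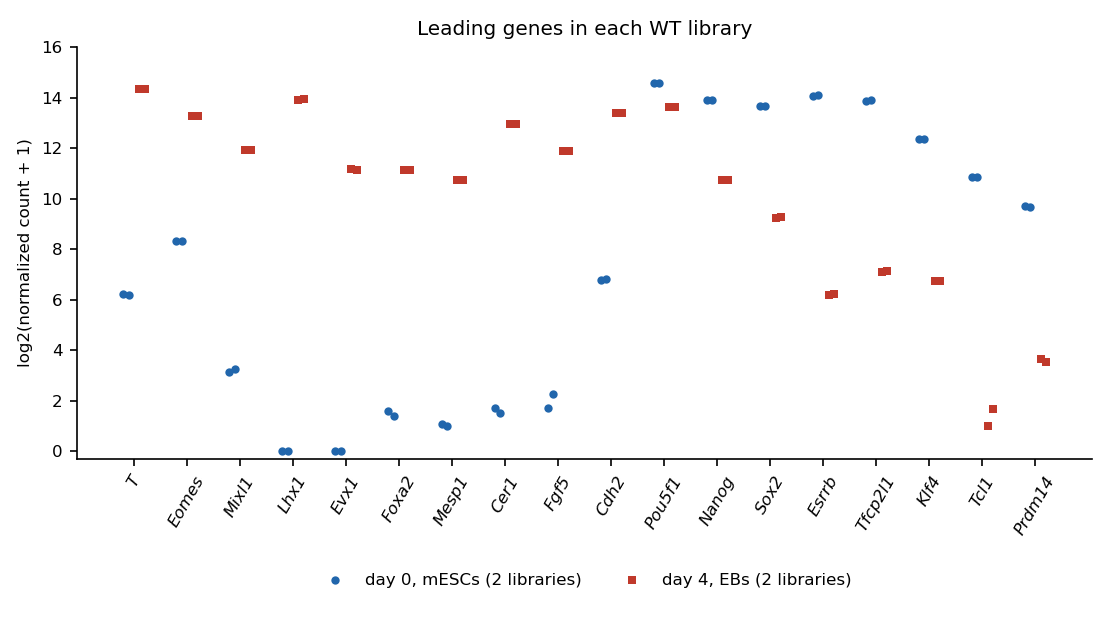
Normalized counts, as log2(value + 1), of 18 genes in each of the 2 WT libraries of day 0 (circles) and of day 4 (squares). The libraries of a day lie nearly on top of each other, and each gene shown is separated between the days, as were 96.1% of all genes compared.

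Streak and organizer genes made up the strongest rise. Among 19 primitive streak factors 16 rose and 1 fell, and the median log2 difference was 6.94. All 17 definitive endoderm and organizer genes rose, with a median of 7.06. With 5 in place of 1 added before the log, the medians of these lists were 6.51 and 5.09, which reverses their order. Evx1, a posterior streak homeobox gene, was at 0 on day 0 and at 2289.9 and 2267 on day 4, at least 669.8-fold higher. Its antisense neighbour 5730457N03Rik, which overlaps it, was at least 288-fold higher, and without strand their reads cannot be told apart. Mesp1, the factor of the first cardiac and cranial mesoderm, rose from 1.14 and 0.951 (about 1 read) to 1697 and 1693. Foxa2, the forkhead factor of endoderm, node and floor plate, rose from 1.97 and 1.64 to 2242 and 2244, and Sox17, a definitive endoderm factor, from 3.91 and 3.26 to 1881 and 1912. Cer1, a secreted Nodal, BMP and Wnt antagonist of the anterior endoderm, reached 7907 and 7871 from 2.27 and 1.90, a ratio of 3789 with a counting interval of 1049 to 31298. Gsc, the organizer homeobox gene, stood at 931 and 936 on day 4 after 5.79 and 4.84. Genes of the later axial midline were detected at low levels, Noto at 133 and 132 and Shh at 64.1 and 65.5. The streak members outside the rise were Cdx1, which fell from 180.4 and 184 to 33.4 and 32.7, and Cdx4 and Nodal, which stayed within 2-fold. Cdx2, by contrast, rose from 7.93 and 7.57 to 591 and 599.8.

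Mesoderm genes were high for early stages and low for late ones. In the paraxial list 11 of 13 genes rose and 1 fell (median 4.99, and 3.83 without a minimum), led by Msgn1, a presomitic bHLH factor, at 881 and 884 on day 4, and Rspo3, a Wnt-enhancing ligand, at 1777 and 1788. Tbx6, which specifies presomitic mesoderm, rose from 19.4 and 16.2 to 784 and 794. In the cardiac and lateral list 14 of 19 rose and 2 fell (median 3.89, and 5.94 with a minimum mean of 50). The receptors Pdgfra and Kdr, which mark cardiac and vascular progenitors, went from 45.1 and 42.4 to 2731 and 2753 and from 19.9 and 17.6 to 2312 and 2293. Gata4 and Gata6, zinc finger factors of heart and endoderm, reached means of 1472 and 1206, and Hand1, a bHLH factor of lateral mesoderm, 218. Factors of the differentiated heart were near the lower end of the table. Tbx5 had 37.3 and 38.7 and then 40.4 and 37.4, Nkx2-5 had 24.7 and 29.4 on day 4, and Tnnt2 (cardiac troponin T) with a day 4 mean of 17.6 was under the minimum. Of 12 blood and endothelial genes 6 rose and 1 fell (median 2.07, 1.42 without a minimum and 3.74 with a minimum mean of 50). Etv2, the factor that starts this lineage, was at 499.8 and 506 on day 4, while the embryonic globins Hbb-bh1, Hba-x and Hbb-y were at 0 in all 4 WT libraries.

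Ectoderm and extraembryonic lists did not move in 1 direction. Over all genes compared 19.5% rose and 15.9% fell. Of 11 neural genes 5 rose and 5 fell (median 0.29, and -2.09 with a minimum mean of 50). Sox1, the early neural plate factor, went from 131 and 128 to a mean of 1.64 and Pax6 from a mean of 32.4 to 14.2, whereas Irx3 and Six3, both at 0 in mESCs, reached means of 337 and 86.0. In the surface ectoderm list 5 of 8 rose and 3 fell (median 2.40, and 1.75 without a minimum), and the risers included the simple epithelial keratins Krt8, from 272 and 280.2 to 7514 and 7504, and Krt18, which other epithelia make too. Trp63, which defines stratified epithelium, was under the minimum. Visceral and parietal endoderm products had 3 of 12 higher and 5 lower (median -0.68), with Afp at 0.406 and Ttr at 0 on day 4. Of 8 trophoblast genes 3 rose and 2 fell (median 0.24, and -0.04 after quantile normalization). Among 7 primordial germ cell genes 1, Prdm1, rose and 3 fell (median -0.82, and -1.26 without a minimum).

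**Figure D3:**
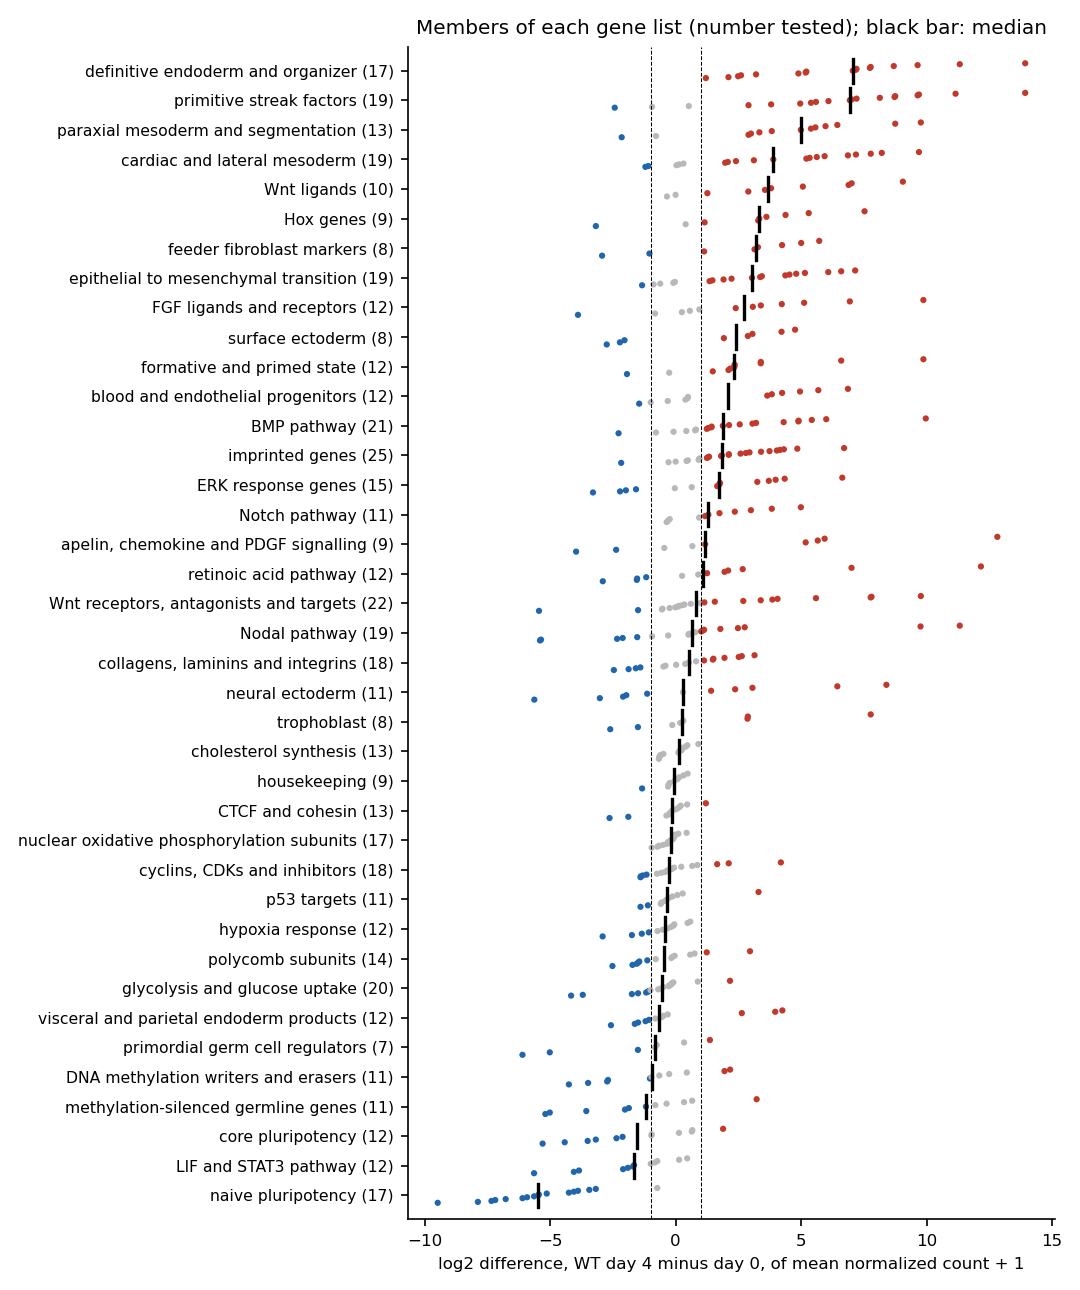
Log2 difference between WT day 4 and day 0 of each tested member of 39 gene lists (points), sorted by list median (black bars). Red points rose and blue points fell by more than 2-fold (dashed lines), and the lists run from definitive endoderm and organizer genes at the top to naive pluripotency genes at the bottom. Whether the endoderm or the streak list is at the top depends on the number added before the log.

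Ligands and antagonists of the streak signals moved in both directions. In the Nodal list 8 of 19 genes rose and 5 fell (median 0.67). Nodal itself stayed within 2-fold, at 1464 and 1481 in mESCs and 777 and 757 in EBs. The related ligand Gdf3 went from 2015 and 2023 to 45.3 and 48.0 and the convertase Pcsk6, which cleaves Nodal precursors, from 2496 and 2554 to 59.4 and 61.2. Of the EGF-CFC co-receptors, Tdgf1 (Cripto) stayed high, at 14909 and 14939 and then 23707 and 23669, and Cfc1 (Cryptic) appeared, from 0 to 864 and 866, at least 254-fold higher. Foxh1, the DNA-binding partner of SMAD2 and SMAD3, rose from 691 and 682 to 3858 and 3833. The feedback antagonists Lefty1 and Lefty2 fell from 1803 and 1811 to 634 and 617 and from 9456 and 9424 to 2184 and 2190.0, while the antagonist Cer1 showed the rise given above.

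BMP genes rose more broadly, with 15 of 21 higher, 1 lower and a median of 1.88. Among the ligands Bmp2 rose from 5.62 and 6.58 to 309.8 and 299 and Bmp7 from 330.2 and 301 to 1163 and 1168, and Bmp4 stayed within 2-fold with 446 and 434 in mESCs against 254 and 256 in EBs. The direct target Id1 rose from 146 and 143 to 2897 and 2855, and Msx1, a homeobox target, was at 0 on day 0 and at 1001 and 999 on day 4. Secreted antagonists rose as well. Fst (follistatin) went from 221 and 224 to 6664 and 6691, Chrd (chordin) from 73.9 and 77.4 to 2287 and 2265 and Nog (noggin) from 10.2 and 10.5 to 103 and 104. Id4 was the member that fell, from 316 and 328 to 63.8 and 68.0.

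Wnt ligands went up with 8 of 10 higher, 0 lower and a median of 3.68, or 5.98 with a minimum mean of 50. Wnt3, which starts the streak in the embryo, rose from 9.03 and 8.48 to 1261 and 1259, Wnt5a from 13.0 and 13.3 to 1671 and 1685, and Wnt8a from 0 and 0.943 to 782 and 782. In the list of receptors, antagonists and targets, 10 of 22 rose and 2 fell (median 0.80). The target Sp5 rose from 86.0 and 84.4 to 4173 and 4144. Axin2, another target, missed the limit with 1297 and 1297 in mESCs against 2598 and 2547 in EBs (log2 difference 0.99). Day 0 cells were held in CHIR99021, an inhibitor of GSK3 that stabilizes beta-catenin. Secreted antagonists moved both ways, with Dkk1 rising from 5.66 and 4.73 to 1364 and 1344 and Notum, a Wnt deacylase, falling from 1221 and 1183 to 26.6 and 26.6.

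FGF ligands moved both ways. Fgf4, the ligand of the naive state, fell from 5196 and 5162 to 341 and 355, and Fgf8, a ligand of the streak, rose from 14.7 and 14.8 to 1956 and 1925. Over ligands and receptors 7 of 12 rose and 1 fell (median 2.74). Of 15 ERK response genes 9 rose and 4 fell (median 1.72). The phosphatases that limit ERK were among the former, Dusp4 going from 61.1 and 62.3 to 6253 and 6245 and Dusp6 from 518 and 529 to 6859 and 6895. The immediate early genes Egr1 and Fos were lower on day 4, Egr1 with 4352 and 4299 and then 1091 and 1099.6, and Fos with 3261 and 3260.0 and then 339.6 and 324. PD0325901, part of 2i, inhibits MEK above ERK and was in the day 0 medium.

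The LIF and STAT3 list had 0 of 12 higher and 7 lower (median -1.68). Stat3 fell from 2192 and 2147 to 507 and 508 and its feedback target Socs3 from 542 and 503 to 145 and 133, whereas the receptor Lifr, with 2209 and 2247 in mESCs against 1122 and 1119.9 in EBs, stayed just within 2-fold. In the remaining pathways the largest changes were those of a few genes. In the Notch list 7 of 11 rose and 0 fell (median 1.30), led by the ligands Dll3, from 77.6 and 78.0 to 2502 and 2509.6, and Dll1, from 89.8 and 80.3 to 1212 and 1238. Retinoic acid genes had 6 of 12 higher and 4 lower (median 1.08). Cyp26a1 (ENSMUSG00000024987), the enzyme that degrades retinoic acid at the streak, went from 1.13 and 0.946, about 1 read, to 9398 and 9342, a ratio of 9017 with a counting interval of 1615 to 355597. Aldh1a2, the enzyme that makes it, reached 63.3 and 62.4. In the apelin, chemokine and PDGF list 5 of 9 rose and 2 fell (median 1.18). The apelin receptor Aplnr (ENSMUSG00000044338) was at 0 on day 0 and at 7254 and 7208 on day 4, at least 2126-fold higher, and its ligand Apln rose from 31.7 and 34.0 to 1714 and 1715. For PDGF the receptor Pdgfra rose and the ligands fell, Pdgfa from 1498 and 1444 to 288 and 279.6 and Pdgfc from 571 and 566 to 37.6 and 33.4.

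**Figure D4:**
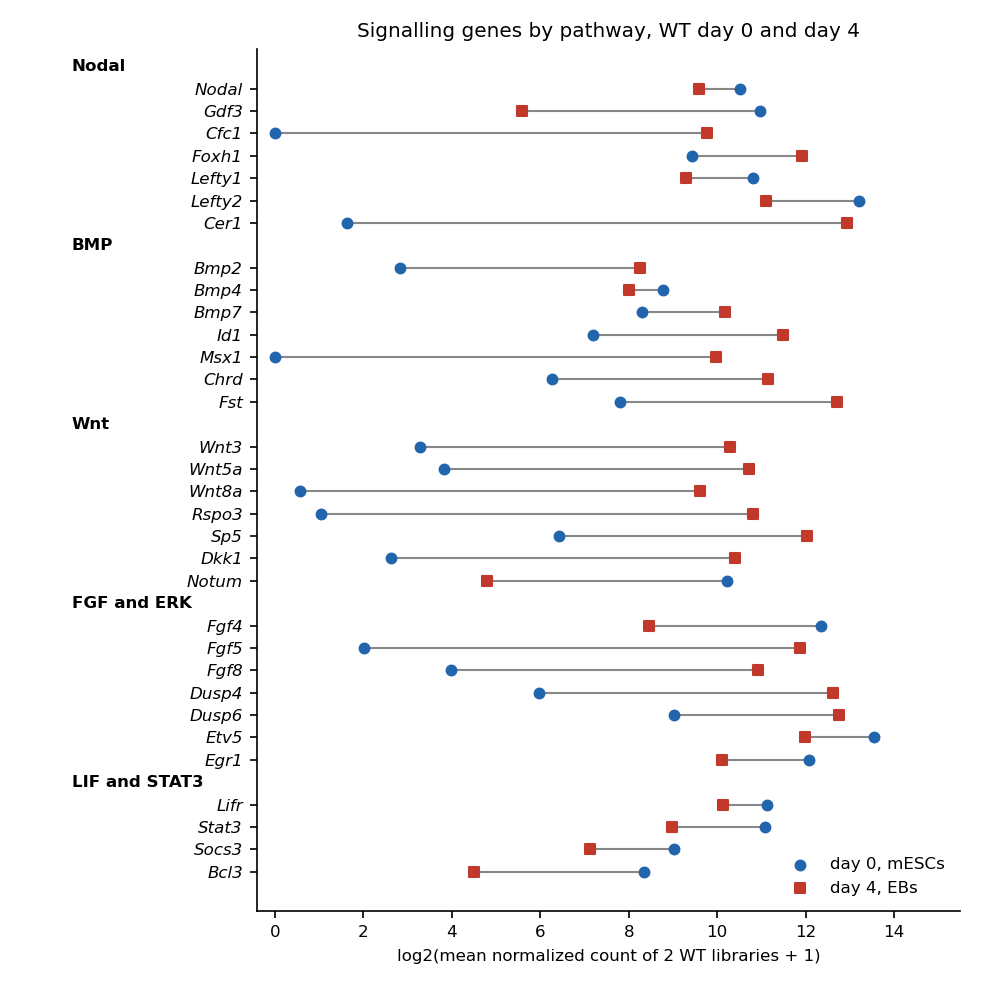
Mean of the 2 WT libraries, as log2(mean normalized count + 1), on day 0 (circles) and day 4 (squares) for 32 genes of 5 pathways. Within each of the Nodal, BMP, Wnt, and FGF and ERK groups some members lie to the right and others to the left of their day 0 point, while the 4 LIF and STAT3 genes all lie to the left.

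Genes of epithelial to mesenchymal transition rose on both sides of that change. Of 19 genes 14 rose and 1, Zeb1, fell (median 3.04). Snai1, a repressor of E-cadherin, rose from 89.2 and 90.5 to 1887 and 1872 and Cdh11, a mesenchymal cadherin, from 18.9 and 16.8 to 2681 and 2694. Cdh1 (E-cadherin) stayed within 2-fold with 11746 and 11698 in mESCs against 7650.0 and 7666 in EBs, and the epithelial splicing factor Esrp1 rose from 40.3 and 39.9 to 2797 and 2769. Vim and Fn1, both mesenchymal markers, were high already in mESCs and differed by -0.09 and -0.03. Collagens, laminins and integrins had 7 of 18 higher and 4 lower (median 0.53), against 19.5% and 15.9% of all genes compared. The feeder fibroblasts bear on these genes, since the mESCs grew on them. Of the 13 fibroblast markers found, 8 passed the minimum, 6 rose and 2 fell (median 3.21, and 1.70 without a minimum), and their summed level was 976.8 normalized counts on day 0 and 1474 on day 4. Of the 13 found, 4 were at or under the level of 3 reads on both days. Among these, Dcn was at 0 on day 0 and at 1.05 and 0.884 on day 4, and Lum was at 0 in all 4 libraries. Col1a1 had means of 16.7 and 155. Thy1 and Timp1 were the members that fell, from 462 to 224 and from 428 to 55.3, and they held most of the summed day 0 level. The part of feeder cells in single genes was not tested.

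Imprinted genes rose as a group, with 17 of 25 higher, 1 lower and a median of 1.84. Peg3, a zinc finger gene expressed from the paternal allele, rose from 1883 and 1893 to 30945 and 30908, Peg10, a retrotransposon-derived gene of the same kind, from 758 and 753 to 13495 and 13572, and Magel2 from 9.02 and 10.4 to 1124 and 1119. H19 and Igf2, neighbours that are expressed from opposite alleles, rose from 42.5 and 47.3 to 481 and 488 and from 55.8 and 57.3 to 774 and 764. Plagl1 was the member that fell, from 512 and 524 to 102 and 127. Which allele the reads came from is not known from gene totals. Of 9 Hox genes compared, 7 rose and 1 fell (median 3.33, and 2.43 without a minimum), and 11 further members were under the minimum. Those that rose included Hoxb1 from 21.9 and 25.6 to 514 and 514 and Hoxb2 to 319.6 and 312, and Hoxb9 fell from 112 and 116 to 10.9 and 12.6.

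Among chromatin genes, falls outnumbered rises, while 19.5% of all genes compared rose and 15.9% fell. The rises in the DNA methylation and polycomb lists and the falls in the list of CTCF and cohesin were near those shares. DNA methylation writers and erasers had 2 of 11 higher and 5 lower (median -0.96). Tet1 and Tet2, which oxidize methylcytosine, fell from 10671 and 10666 to 1656 and 1639 and from 3572 and 3536 to 186 and 185, and Tet3 rose from 202 and 198 to 787 and 766. Dnmt3l, a co-factor of de novo methylation, fell from 3098 and 3065 to 276 and 272, opposite to Dnmt3b. Zfp57, which protects imprints, fell from 10126 and 10067 to 1513 and 1534. Germline genes known to be silenced by promoter methylation had 1 of 11 higher and 6 lower (median -1.18, and -1.86 without a minimum), with Dazl going from 219 and 217 to 5.73 and 5.81 and Hormad1 from 161 and 161 to 3.73 and 3.14. Polycomb genes had 2 of 14 higher and 6 lower (median -0.48). The PRC2 subunits Suz12 and Eed fell from 8752 and 8817 to 3007 and 2979 and from 4602 and 4679 to 1730.1 and 1672, and Ezh2, the enzyme of the complex, differed by -0.04 on the log2 scale. The reader subunit Cbx7 fell from 7457 and 7683 to 1319 and 1325 and Cbx2 rose from 688 and 721 to 1668 and 1660.4. Ctcf was at 3971 and 3938 in mESCs and at 4241 and 4256 in EBs, and in its list with cohesin 1 of 13 rose (Stag2) and 2 fell (Ctcfl, and Wapl, listed under the older symbol Wapal, from 11467 and 11305 to 3101 and 3063), with a median of -0.14, or 0.03 after quantile normalization. None of the 7 genes of the 2-cell-like state in the table passed the minimum.

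Metabolic, stress and cell cycle lists had medians between -0.56 and 0.14. Over all genes compared 19.5% rose and 15.9% fell, and the counts of the cyclin list were near those shares. In oxidative phosphorylation 0 of 17 nuclear subunit genes and in cholesterol synthesis 0 of 13 genes passed 2-fold in either direction (medians -0.19 and 0.14). Glycolysis had 1 of 20 higher and 7 lower (median -0.56). Pfkp, an isoform of phosphofructokinase, fell from 24209 and 24388 to 1387 and 1321 and Hk1 from 3671 and 3627 to 280.3 and 279. The lactate transporter Slc16a1 was the member that rose, from 3679.7 and 3630.2 to 16454 and 16369.5. Ldha, lactate dehydrogenase A, stayed within 2-fold on the log2 scale (difference 0.88) yet had the largest gain of any gene per kilobase, from 26400.2 to 48653 normalized counts per kb. T took the fifth place in that ranking. Hypoxia genes had 0 of 12 higher and 4 lower (median -0.42), p53 targets 1 of 11 and 2 (median -0.35), and cyclins, CDKs and inhibitors 3 of 18 and 4 (median -0.24), with Ccnd2 rising from 35.1 and 37.8 to 687 and 681. The housekeeping list had a median of -0.05, or 0.06 with libraries set to equal totals. Gapdh had 146438 and 146435 and then 120333 and 120691. Hprt had means of only 18.6 and 26.3, and E14Tg2A cells are known to carry a deletion in this gene.

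Outside the lists, the 12 largest rises at means of 100 or more also included Pcdh7, a protocadherin (0 to 3585 and 3612), Frzb, a secreted Wnt antagonist (0 to 2721 and 2701), Samd3 (0 to 1196 and 1195) and Klhl6 (0 to 1069.9 and 1079). These were at least 1058-, 797-, 351- and 316-fold higher. The annotated span of Pcdh7 overlaps other genes on the same strand, between which reads can be split. The 12 largest falls, of genes with the same mean, included germline genes. Ooep, an oocyte-expressed gene, went from 2120.5 and 2150.3 to 6.77 and 6.53, and Morc1, a gene of male germ cells, from 2386 and 2384 to 8.66 and 8.94. AU018091 fell from 3562 and 3619.8 to 9.72 and 8.21. Spp1 (osteopontin), a secreted matrix protein, fell from 10955 and 11008 to 29.8 and 30.7, 363-fold (261 to 527). Spic, an ETS factor of macrophages and naive cells, and Myo1f, an unconventional myosin, were at 0 in both EB libraries after means of 350.2 and 422 in mESCs, at least 122- and 146-fold lower. Aire, the regulator of self-antigen expression known from the thymus, fell from 1201 and 1182 to 4.22 and 3.56, and it overlaps Dnmt3l on the opposite strand. Lrrc31, Phf11d and Accsl completed this group.

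Changes were also unevenly placed in the genome. Of 487 windows of 2 Mb with at least 12 compared genes, 427 had a median within 0.5 of 0 on the log2 scale, 6 were below -1 and 9 above 1. The lowest pair adjoined each other on chromosome 4 between 144 and 148 Mb, where 32 of 45 genes fell, 2 rose and the median was -2.33. This stretch holds Zfp600, Rex2 and many Gm-numbered genes, and Rex2 fell from 7398 and 7400.4 to 302 and 309.7 and Gm13242 from 6296 and 6305 to 360.5 and 363. Between 4 and 8 Mb of chromosome 14, 27 of 38 genes rose and 2 fell (median 1.52), among them Gm3194 from 259.5 and 270.4 to 1019 and 1012 and Gm3591 from 113 and 101 to 647 and 634. Both stretches are mostly arrays of similar genes, between which reads can be split, so that their members are not separate counts and single values are uncertain. The highest window median, 2.67, was that of chromosome 6 from 52 to 54 Mb, which holds the HoxA genes and Evx1. It rests on 12 genes, of which 8 rose and 1 fell, and counts Evx1 and its overlapping antisense neighbour separately. Hoxa5 (means of 1.05 and 19.7), Hoxa13 (0 and 20.4) and Jazf1 (3.49 and 17.1) passed the minimum only through day 4. On chromosome X 158 of 542 genes rose (29.2%) and 68 fell (12.5%), with a median of 0.26, against medians of -0.08 to 0.19 on the autosomes. Over all genes compared 19.5% rose and 15.9% fell. Chromosome 14 came close to X, with 27.2% higher and 12.3% lower. Amot, an X-linked regulator of YAP, rose from 95.9 and 100.2 to 25117 and 25041. Xist fell from 185 and 181 to 14.1 and 13.9 and its antisense Tsix from 183 and 176 to 33.0 and 36.9, and without strand their reads cannot be told apart. Genes named in this paragraph were chosen after their values were seen.

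Promoter sequence was described by size of change, without a test. RefSeq start sites matched 11168 of the genes compared, and the ratio of observed to expected CpGs was taken over the 250 bases before each start. The median ratio was 0.71 over all of these genes, 0.561 for genes more than 16-fold higher and 0.389 for genes more than 16-fold lower. CpG-poor promoters, with a ratio under 0.4, were found for 14.2% of the genes within 2-fold, 33.4% of those more than 16-fold higher and 51.0% of those more than 16-fold lower. Restricted to genes whose mean reached 100 normalized counts these shares were 9.19%, 29.6% and 47.2%. Nanog, with a ratio of 0.182, and Esrrb, with 0.264, were of the CpG-poor kind, while Lhx1 had 0.991 and Gsc 1.06. Both directions of change held both kinds. Mesp1 (0.105) and Cer1 (0.309) were CpG-poor among the risers, and Klf4 (0.941) and Klf2 (0.915) were not CpG-poor among the genes that fell. For Nanog and Klf4 the bases after the start used were not found in an annotated transcript of the gene, so their starts are uncertain. The TATA box, TATAAA on either strand, was in 9.87% of the promoters of genes more than 16-fold higher and 12.8% of those more than 16-fold lower, against 6.41% over all genes compared. It lay 28 bases before the start of Tfcp2l1 and 32 before that of Nr0b1, a nuclear receptor of naive cells, and 211 before that of Spp1, which fell too. Among genes that rose it lay 43 bases before the start of Tbx6, 54 before that of Dkk1 and 164 before that of Gsc. The T-box motif GGTGTGA was in 3.04% and 3.57%, against 2.88%, and the TCF and LEF motif CTTTGAT in 3.8% and 2.04%, against 2.24%. For the FOXH1 motif AATCCACA the shares were 0.506% and 2.04%, against 0.421%, and for the octamer ATGCAAAT 2.53% and 2.55%, against 1.33%. TCAAGGTCA, the extended site of monomeric nuclear receptors, was in 0% and 1.02%, against 0.269%. With 395 and 196 promoters in these classes, shares near 2% rest on few genes, and a match is only a match of letters.

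**Figure D5:**
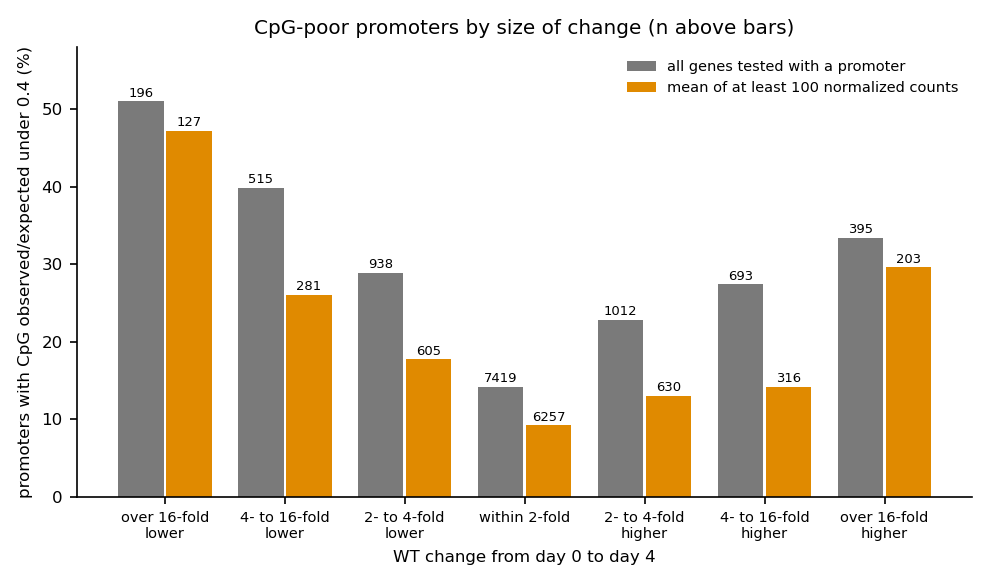
Share of genes with a CpG-poor promoter (observed to expected CpG ratio under 0.4 in the 250 bases before the start, in percent) by class of change from day 0 to day 4 in WT cells, for all genes with a promoter (gray) and for those whose mean reached 100 normalized counts (orange), with the number of genes above each bar. The share is lowest within 2-fold (14.2%) and highest among genes more than 16-fold lower (51.0%).

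The course of CTCF-K20R cells, measured in libraries that the WT calls did not use, gave the comparison. Of the 3089 genes that rose in WT cells, 1833 (59.3%) were also more than 2-fold higher on day 4 in CTCF-K20R cells and 103 (3.3%) more than 2-fold lower, against 15.8% and 12.4% of all genes. Of the 2524 that fell, 1372 (54.4%) were also lower and 68 (2.7%) higher. Among genes more than 16-fold higher in WT cells 77.5% were higher in CTCF-K20R cells too and 2.5% lower. Their median was 5.14 in WT and 2.58 in CTCF-K20R cells. Among genes more than 16-fold lower in WT cells 93.8% were lower in CTCF-K20R cells too, with medians of -5.0 and -3.34. All these classes were chosen by their WT change, so a weaker median change in CTCF-K20R cells was partly fixed in advance. The naive list had a median of -4.22 in CTCF-K20R cells, with 16 of 17 lower. The medians of the streak list and the definitive endoderm and organizer list were 0.52 and 0.98 in CTCF-K20R cells. The difference between the 2 courses was tested with limma on 6 samples, 1 WT and 2 CTCF-K20R samples per day, so that its error rests on the CTCF-K20R pairs. At a Benjamini-Hochberg adjusted p under 0.05 and a difference over 1, 2031 of 15767 genes (12.9%) were called, 952 with the WT change above and 1079 below that of CTCF-K20R cells. Without CTCF-K20R day 4 replicate 1 or 2 the count was 909 or 885. Of the streak list 14 of 19 genes were called above and 1 below, of the definitive endoderm and organizer list 14 of 17 and 1, of the paraxial list 11 of 13 and 1, and of the naive list 2 of 17 and 9. The 4 markers were all called above, and the call of Mixl1 was at its limit without CTCF-K20R day 4 replicate 1 or 2 (limma adjusted p = 0.0465 or 0.05). The WT change exceeded the other by 3.80 for T (SE 0.192, limma adjusted p = 0.000305), 2.96 for Eomes (SE 0.097, limma adjusted p = 0.000108), 7.44 for Mixl1 (SE 0.683, limma adjusted p = 0.00165) and 12.14 for Lhx1 (SE 0.687, limma adjusted p = 0.000428), all on the log2 scale. Genotype cannot be told apart from differences between clones or cultures.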

How the data were processed

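Polyadenylated RNA extracted with Trizol was sequenced from 8 libraries, 2 per genotype and day, on a NovaSeq instrument. Per the study's methods, the authors trimmed adaptors with Trim_Galore 0.4.4, quantified transcripts on mm10 with salmon 0.9.1, summed them to genes with tximport 1.20.0 and used DESeq2 1.10.1. What the authors deposited is a normalized signal for each gene: read counts after their scaling between libraries, and raw counts were not used here. Salmon divides reads between overlapping transcripts, so values need not be whole. Whether strand was used is not given in the sources used here. Gene identifiers were matched to GENCODE vM21 (GRCm38), where 17948 of 18094 were found, and 24 symbols had been turned into dates. Totals were 19412659 to 21311513 normalized counts. A read was worth 0.811 to 1.15 of them, which puts depth at about 18300000 to 23900000 reads (18500000 and 22100000 in WT on day 0, 20200000 and 23900000 on day 4). Depth limits genes near 0, where 3 reads were taken as the floor. The methods speak of biological replicates, but the labels name no separate cultures and the WT pairs differed by less than drawn reads would, so p-values measure only the spread between these libraries, which may be technical.

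Each WT pair was averaged to 1 sample. Values were compared as log2(value + 1), with a minimum mean of 10, which understates changes of low genes, and no test was made for WT alone. The course of the 2 genotypes was compared with limma 3.58.1 (R 4.3.3, with a mean-variance trend and Benjamini-Hochberg adjustment). The fit was also run on simulated data, whose spread was set and not taken from the CTCF-K20R pairs, so that run does not show its error rate here. Python 3.11.15, numpy 2.4.6, pandas 2.3.3, scipy 1.17.1 and matplotlib 3.10.9 were used for the rest. Named genes were the 12 largest rises and 12 largest falls at means of 100 or more, the 6 largest gains and losses per kilobase each way, and members of 40 gene lists. Counts of calls in the housekeeping list are not reported here. The members and lists were chosen with earlier results of these data known. Alternatives were other pseudocounts (0.1, 5), minima (none, 50), scalings (equal totals, quantile), a 4-fold limit, a replicate block and leaving out each library.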

Additional observations from a re-analysis of the deposited data

Results flagged for a closer look

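The day 4 minus day 0 change differed between WT and CTCF-K20R cells for all 4 mesendoderm markers, by limma's interaction test with Benjamini-Hochberg adjustment over 15767 genes. T changed by 8.14 in WT and 4.34 in CTCF-K20R cells on the log2 scale, a difference of 3.80 (3.795 before rounding, SE 0.192, limma adjusted p = 0.000305). Eomes changed by 4.96 and 2.01, a difference of 2.96 (SE 0.097, limma adjusted p = 0.000108). Mixl1 changed by 8.72 and 1.28, a difference of 7.44 (SE 0.683, limma adjusted p = 0.00165), and its adjusted p by limma was 0.0465 or 0.05 without CTCF-K20R day 4 replicate 1 or 2. Lhx1 changed by 13.93 and 1.79, a difference of 12.14 (SE 0.687, limma adjusted p = 0.000428). The size of the Lhx1 difference depends on the pseudocount, since Lhx1 was at 0 in both WT day 0 libraries.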

How the results depend on the processing

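The counts of WT genes that rose and fell stayed within 1.5 times the reported 3089 and 2524 under other pseudocounts, without a minimum, with equal totals (3362 and 2261), with quantile normalization (2733 and 2868) and without each WT library in turn (3080 to 3100, and 2516 to 2546). With a minimum mean of 50, 2033 rose, and a 4-fold limit left 1589 and 1119, in both cases because fewer genes could pass. Scaling to equal totals moved the median of all genes by 0.11 on the log2 scale. The share of higher calls among all calls was 55.0% as reported, 59.8% with equal totals and 48.8% with quantile normalization. None of the 38 named genes changed sign under any alternative, and 34 of their 380 values lay outside the counting interval of the ratio. That interval has no far bound for genes at 0 on a day, and their log2 values depend on the pseudocount, as for Lhx1 (13.93 as reported, 17.25 with a pseudocount of 0.1 and 11.61 with 5). The order of the largest falls changes with it too, Myo1f (-12.04) and Spic (-11.77) passing Tcl1 (-10.10) at 0.1 and Spp1 (-8.28) passing Tcl1 (-8.14) at 5. Of 390 values of 39 list medians under the alternatives, 159 moved by 0.05 or more on the log2 scale, and 4 lists changed sign in at least 1 alternative: neural ectoderm (-2.09 with a minimum mean of 50), trophoblast (-0.04 with quantile normalization), CTCF and cohesin (0.03 with quantile normalization) and housekeeping (0.06 with equal totals and 0.18 with quantile normalization). The count of genes whose course differed between genotypes, 2031, was 3340 with all 8 libraries as separate samples, 4200 by adjusted p alone, and 885 to 1616 without 1 CTCF-K20R library, the low end being 909 and 885 without day 4 replicate 1 or 2. In a fit with a replicate block it was 3325, close to the count with 8 separate libraries. Deviations of same-numbered libraries correlated between -0.0308 and 0.0296, so the numbers do not pair the samples. The 4 marker differences kept their sign under each alternative, but the adjusted p of Mixl1 rose to 0.0465 and 0.05 without CTCF-K20R day 4 replicate 1 or 2.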
